A study of Homo sapiens with 12 samples.

Results

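H1 cells, an established human embryonic stem cell line of wild-type genotype, were compared on Day 16 and Day 12 of cardiac differentiation by passaging alone. These P-DF cells were mesendoderm progenitors that were dissociated and re-plated on Day 2 and then left to differentiate in DF medium, a basal medium without added inducer, so that no WNT inhibitor was given. Of the 12 libraries of the series, the 4 libraries of P-DF cells were chosen by their labels, replicates 3 and 4 on each day. The other 8 libraries held NP-IWP2 cells, which stayed in static culture and received the WNT inhibitor IWP2 (replicates 1 and 2), and P-IWP2 cells, which were passaged on Day 2 and also received IWP2 (replicates 5 and 6), again 2 libraries on each day. All groups came from the same line, and the sources used here do not say whether the 2 libraries of a group came from separate cultures, so p-values measure the spread between these libraries, which may be technical.

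Between 14885589 and 18014265 reads were counted on genes in each P-DF library, and a gene without a read could still be present at up to 3 counts, which were 0.167 to 0.202 CPM (counts scaled to the library total). This bound covers counting error only. Across genes, the log2 CPM of the 2 replicates had a Pearson correlation of 0.989 on Day 12 and 0.994 on Day 16. The cardiomyocyte markers TNNT2, TNNC1, ACTN2, MYH6, MYL7, NKX2-5, MYBPC3, RYR2 and TTN were all at 37.0 FPKM or more in each P-DF library (FPKM are counts scaled to exon length and to the counts of the library), so the label of cardiomyocyte culture held on both days. One library outside the comparison, P-IWP2 replicate 5 of Day 12, stood apart from its replicate, and results are also given without it because all groups shared one estimate of the spread.

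Cardiomyocytes derived from stem cells start with fetal contractile proteins and change their composition over weeks in culture. Ventricular cells replace alpha with beta myosin heavy chain, gain the ventricular myosin light chain and the cardiac troponin I, and build up Z-discs, calcium stores and gap junctions, while the pacemaker-like automaticity of early cells is carried by nodal channels and transcription factors. WNT and BMP signals pattern the early heart.

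From Day 12 to Day 16, 2654 of 19505 genes tested in P-DF cells passed a Benjamini-Hochberg adjusted p of 0.05 in edgeR's quasi-likelihood test (13.6%). Of these, 1325 were higher on Day 16 (6.79% of all genes tested) and 1329 were lower (6.81%). The change was more than 4-fold for 238 of the higher and 376 of the lower genes. Each of the 2654 genes had no overlap between the days in CPM, but the calls used these same values, so this is no separate support. The split depended on scaling: 49.9% of called genes were higher with TMM scaling, against 21.0% with total counts and 24.4% with limma on FPKM, and the median log2 fold change (log2FC) of all genes tested was -0.02 with TMM and -0.28 with total counts. FPKM values are scaled to total counts, so a ratio of FPKM lies below the edgeR log2FC by about that shift, and each log2FC below is relative to TMM.

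The count rested on which libraries shared the fit. Without the Day 12 library P-IWP2 replicate 5, 15.1% of genes were higher and 14.1% lower, 5984 in all, and the 2654 genes were among them. It was 5948 without P-IWP2 replicate 6 of that day, 1529 without NP-IWP2 replicate 1 of Day 12 and 1534 without replicate 2 of the same group. With 1 P-DF library left out, 976 genes were called without Day 12 replicate 3, 536 without Day 12 replicate 4, 667 without Day 16 replicate 3 and 458 without Day 16 replicate 4. Of the 131 called genes named here, 82, 57, 69 and 57 kept their call in these 4 fits, in the same order, and none changed direction.

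**Figure D1:**
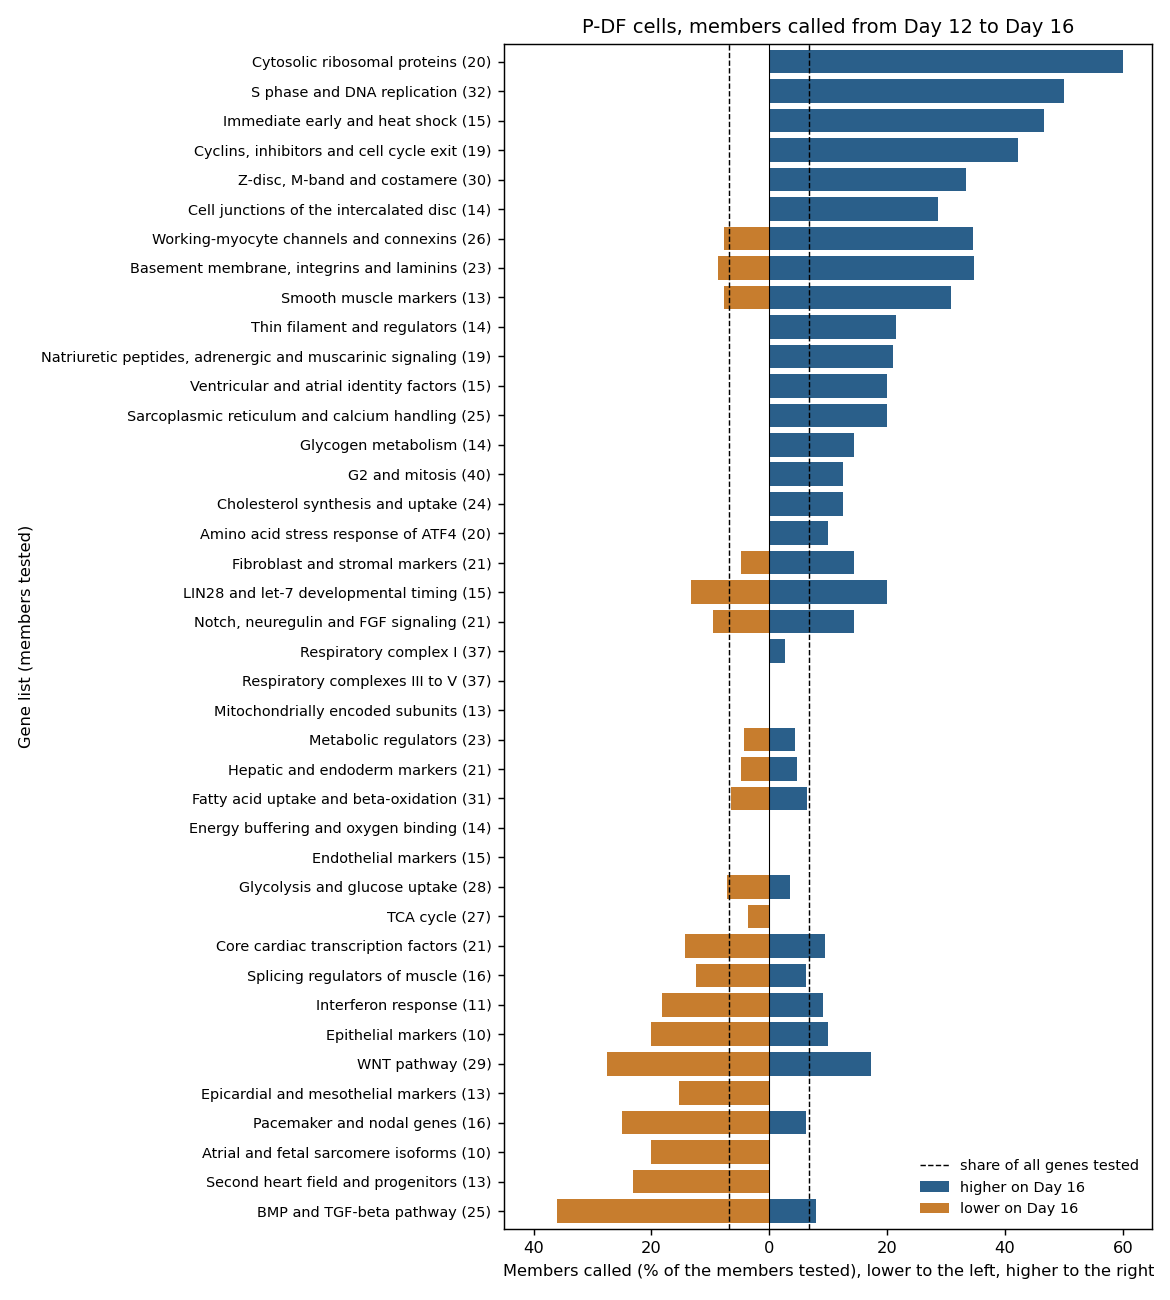
Each bar is 1 list of genes with at least 10 members tested; the horizontal axis gives the share of its members called between the days, rises to the right and falls to the left, and dashed lines mark the shares over all genes tested (6.79% higher and 6.81% lower). The ribosomal protein, S phase, immediate early and heat shock, cell cycle exit and Z-disc lists lie to the right. The BMP and TGF-beta, second heart field and pacemaker lists lie to the left. The lists were chosen with earlier results of these data known, so a share beyond a dashed line is no separate support.

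Of 9 ventricular and adult sarcomere genes, 3 rose, 0 fell and 6 were not called, with a median log2FC of 1.02 (6 rose without P-IWP2 replicate 5 of Day 12). MYL2, the ventricular myosin light chain (12:110910819-110921443 in the hg38 build), was at 3.56 and 1.37 FPKM in replicates 3 and 4 on Day 12 and at 1662 and 1360 FPKM on Day 16. Both Day 16 libraries were far above both Day 12 libraries, with a log2FC of 9.52 ± 1.46 (SE) and an edgeR adjusted p of 0.00454. MYH7, the beta myosin heavy chain (14:23412740-23435660), went from 121 and 88.8 FPKM to 2613 and 2340 FPKM (log2FC 4.81 ± 1.07, edgeR adjusted p = 0.0203). TNNI3, the cardiac troponin I of mature heart, went from 4.59 and 3.11 to 32.4 and 31.2 FPKM (log2FC 3.30 ± 0.39, edgeR adjusted p = 0.00153). It still made up 13.8% and 13.5% of the summed FPKM of TNNI3 and the fetal TNNI1 on Day 16, against 2.55% and 2.01% on Day 12.

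MYH6, the alpha myosin heavy chain (14:23381982-23408273), fell from 1650 and 1748 FPKM to 109 and 71.0 FPKM, with a log2FC of -3.98 ± 0.50 and an edgeR adjusted p of 0.00189. The share of MYH7 in the summed FPKM of both heavy chains was 6.86% and 4.84% on Day 12 and 96.0% and 97.1% on Day 16, with no overlap between the days. MYH6 and MYH7 are near-identical neighbours, and reads that match both may have been split or dropped in counting. Of 10 atrial and fetal sarcomere genes, 2 fell, 0 rose and 8 were not called, with a median log2FC of 0.46 and 7 of 10 above 0 (4 rose and 2 fell without P-IWP2 replicate 5 of Day 12). The other was ACTA2, the smooth muscle actin of fetal heart, at 161 and 167 FPKM on Day 12 and 25.1 and 15.5 FPKM on Day 16 (log2FC -2.76 ± 0.75, edgeR adjusted p = 0.0413). MYL7, the atrial light chain, was not called, with 2199 and 2283 FPKM on Day 12 and 3740 and 3646 FPKM on Day 16. MYL4, another atrial light chain, was at 830 and 733 and then 1323 and 1154 FPKM (edgeR adjusted p = 0.0673 for MYL7 and 0.364 for MYL4). The calls of TNNI3 and MYH6 were kept without any one of the P-DF libraries. That of MYL2 was lost without Day 12 replicate 4, and those of MYH7 and ACTA2 in each of these 4 fits, with a log2FC of 4.57 to 5.07 for MYH7 and of -3.13 to -2.46 for ACTA2.

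**Figure D2:**
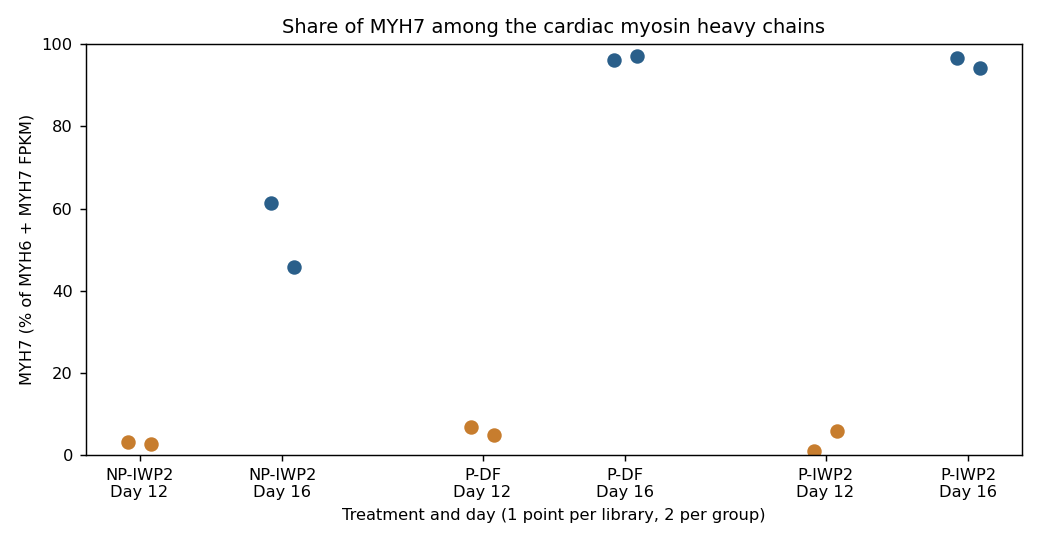
The vertical axis gives MYH7 as a percentage of the summed FPKM of MYH6 and MYH7 in each of the 12 libraries, with 2 points per treatment and day. P-DF libraries lie at 6.86% and 4.84% on Day 12 and at 96.0% and 97.1% on Day 16. The P-IWP2 libraries lie at 96.65% and 94.06% on Day 16. The NP-IWP2 libraries go from 3.26% and 2.64% on Day 12 to 61.4% and 45.7% on Day 16.

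Among 14 genes of the thin filament and its regulators, 3 rose and 0 fell, with a median log2FC of 0.71 (8 rose without P-IWP2 replicate 5 of Day 12). LMOD2, a leiomodin that elongates actin filaments, was at 8.10 and 6.94 FPKM on Day 12 and 175 and 149 FPKM on Day 16 (log2FC 4.69 ± 0.95, edgeR adjusted p = 0.0145). Its relative LMOD3 was at 0.730 and 1.06 and then 9.84 and 9.05 FPKM (log2FC 3.66 ± 0.65, edgeR adjusted p = 0.00851). TNNT1, the slow skeletal troponin T, was the third and stayed below 5 FPKM. LMOD2 and TNNT1 kept their calls in 15 and LMOD3 in 16 of 19 other fits (other methods, or 1 library left out). The general markers in this list were not called: TNNT2, the cardiac troponin T, was at 126 and 145 FPKM on Day 12 and 106 and 78.7 FPKM on Day 16, and TNNC1, the cardiac troponin C, at 542 and 417 and then 1086 and 875 FPKM.

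The Z-disc, M-band and costamere list, proteins that anchor and align the filaments, held 30 tested genes, of which 10 rose and 0 fell (21 rose without P-IWP2 replicate 5 of Day 12). Its median log2FC was 1.08, and 0.82 with total counts. HSPB3, a small heat shock protein of muscle, was at 8.41 and 11.45 FPKM on Day 12 and 140 and 129 FPKM on Day 16 (log2FC 4.02 ± 0.30, edgeR adjusted p = 0.000394). CRYAB, the chaperone of desmin and titin, was at 11.8 and 7.31 and then 115 and 103 FPKM. DES, the intermediate filament of muscle, was at 18.5 and 11.2 and then 137 and 122 FPKM, and its log2FC was 3.38 ± 0.43 (edgeR adjusted p = 0.00212). In all 3 genes, each Day 16 library was higher than any Day 12 library, and the calls were kept when any 1 P-DF library was left out. TCAP, the titin cap, SYNPO2L, CSRP3, a stretch sensor, HSPB7 and ACTN2, the Z-disc actinin, rose as well, with log2FC of 3.33, 3.31, 3.18, 1.86 and 1.52. These 5 calls were lost in 2 to 4 of the fits that left out 1 P-DF library; without Day 12 replicate 4, none of them was kept.

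**Figure D3:**
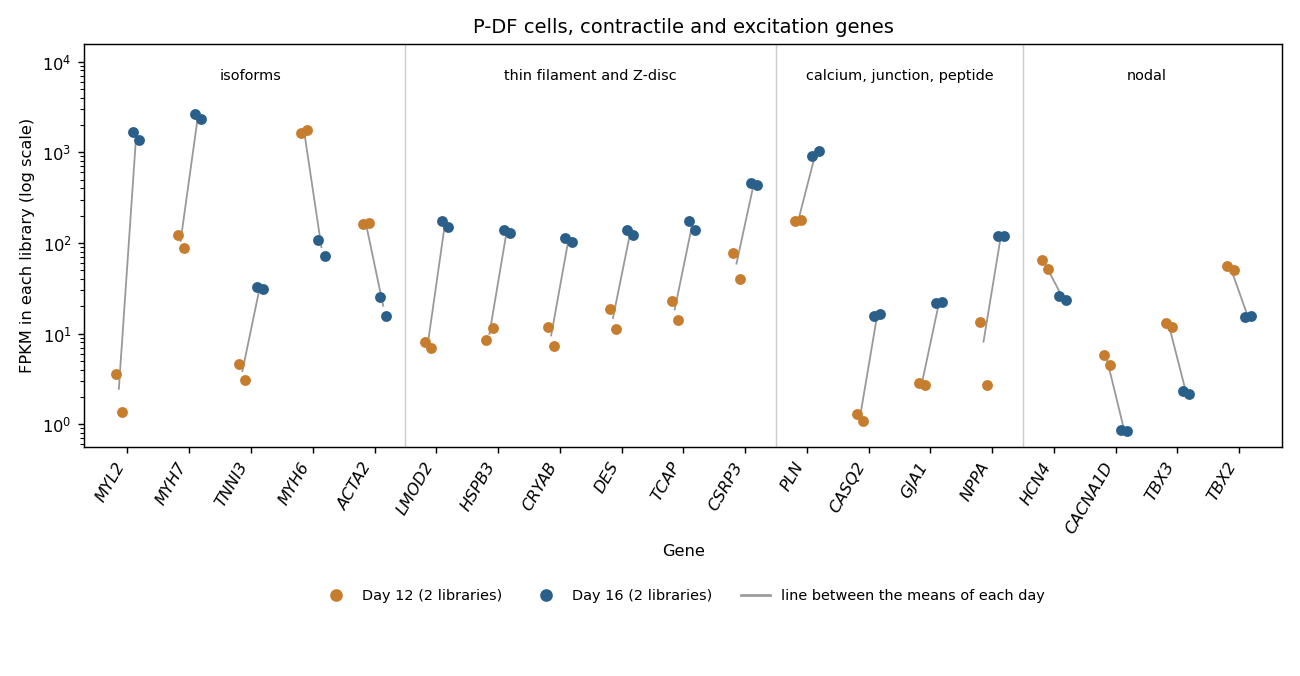
The vertical axis gives FPKM on a log scale in each P-DF library, with Day 12 in orange, Day 16 in blue and a line between the means of the days, for genes of the contractile apparatus, calcium handling, the gap junction and the natriuretic peptide and for nodal genes. MYL2 goes from 3.56 and 1.37 to 1662 and 1360 FPKM while MYH6 goes from 1650 and 1748 to 109 and 71.0 FPKM. The 4 nodal genes on the right are the called falls of their list, in which 7 of 16 genes had a log2FC above 0.

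Whole gene lists, members that were not called included, were searched for short motifs near the start sites, in RefSeq promoters of GRCh38.p14 over the 250 bases before the start and on both strands. The site of MEF2, a transcription factor family of muscle, was present in 8 of the 23 Z-disc, M-band and costamere genes with a promoter entry (34.8%, of 30 in the list) and in 1.79% of all 27305 promoters. Of the 6 called members with an entry, 3 held it. Their windows are shown because these 3 genes rose, with the match in capitals and 20 bases on each side. They lie at chr5:54455550-54455599 on the plus strand (HSPB3), chr1:16018096-16018145 on the minus strand (HSPB7) and chr10:73656164-73656213 on the minus strand (SYNPO2L).
HSPB3: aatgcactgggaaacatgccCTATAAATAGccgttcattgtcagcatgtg
HSPB7: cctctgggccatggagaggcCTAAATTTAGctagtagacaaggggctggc
SYNPO2L: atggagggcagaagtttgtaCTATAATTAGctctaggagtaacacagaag
None of these windows overlaps an exon of the annotation. A match is a run of letters, and binding was not measured.

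Fewer genes of calcium handling than of the Z-disc were called. Of 25 genes of the sarcoplasmic reticulum and calcium handling, 5 rose and 0 fell, with a median log2FC of 0.34, and 11 rose and 1 fell without P-IWP2 replicate 5 of Day 12. PLN, phospholamban, the brake on the calcium pump, was at 174 and 179 FPKM on Day 12 and 905 and 1038 FPKM on Day 16 (log2FC 2.72 ± 0.74, edgeR adjusted p = 0.0416). CASQ2, the calcium store protein calsequestrin of the heart, was at 1.30 and 1.10 and then 15.8 and 16.5 FPKM (log2FC 4.01 ± 0.41, edgeR adjusted p = 0.000825). CASQ1, CACNA2D1 and CAMK2D also rose, with log2FC of 1.80, 1.32 and 1.09. The calcium pump ATP2A2 was at 100.2 and 87.5 FPKM on Day 12 and 98.8 and 100.8 FPKM on Day 16, and the release channel RYR2 at 40.9 and 41.3 and then 38.1 and 37.0 FPKM, neither called. CASQ2, CACNA2D1 and CAMK2D kept their calls without any one P-DF library, and PLN and CASQ1 lost theirs in each of the 4 fits, with a log2FC of 2.61 to 2.83 for PLN.

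Channels and connexins of working muscle gave 9 rises and 2 falls among 26 genes (13 and 6 without P-IWP2 replicate 5 of Day 12). GJA1, the gap junction protein connexin 43, was at 2.83 and 2.75 and then 21.7 and 22.4 FPKM (log2FC 3.24 ± 0.45, edgeR adjusted p = 0.00280). ABCC9, a subunit of the ATP-sensitive potassium channel, rose by 3.75 on the log2 scale and KCND3, a transient outward potassium channel, by 2.39. These genes are picked from the rises. The summed FPKM of the list went the other way, from 353 and 295 on Day 12 to 239 and 240 on Day 16. KCNJ2, the main inward rectifier of adult ventricle, did not pass the filter and stayed at 0.05 FPKM or less in each library. GJA1 and ABCC9 kept their calls without any one P-DF library, and KCND3 lost its call in each of the 4 fits.

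Among nodal genes, more falls than rises were called, while 7 of 16 genes had a log2FC above 0. With a replicate block, 2 fell and 1 rose. In the main fit, 6.81% of all genes tested fell and 6.79% rose. Of 16 pacemaker and nodal genes, 4 fell and 1 rose, with a median log2FC of -0.09 (5 fell and 2 rose without P-IWP2 replicate 5 of Day 12). HCN4, the pacemaker channel, was at 64.95 and 51.2 FPKM on Day 12 and 26.3 and 23.6 FPKM on Day 16 (log2FC -0.96 ± 0.24, edgeR adjusted p = 0.0304). CACNA1D, the calcium channel of the sinus node, was at 5.84 and 4.47 and then 0.860 and 0.840 FPKM (log2FC -2.34 ± 0.25, edgeR adjusted p = 0.000912). TBX3 and TBX2, repressors that keep nodal tissue from working fate, fell by 2.21 and 1.52 on the log2 scale. Only CACNA1D among these 4 kept its call without any one P-DF library.

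Among 19 genes of natriuretic peptides and of adrenergic and muscarinic signaling, 4 rose and 0 fell (5 and 4 without P-IWP2 replicate 5 of Day 12, and 4 and 2 with total counts). NPPA, the atrial natriuretic peptide, was at 13.6 and 2.74 FPKM on Day 12 and at 118 FPKM in both Day 16 libraries, and its log2FC of 4.11 ± 0.82 (edgeR adjusted p = 0.0138) was called in the fit without Day 12 replicate 3 and lost its call without each of the other 3 P-DF libraries (3.34 to 5.69 over these fits). AKAP6, an anchor of protein kinase A, and ADCY5, a cardiac adenylyl cyclase, rose by 2.85 and 1.72. NPPB, the B-type peptide, was at 141 FPKM in replicate 3 and 15.3 FPKM in replicate 4 on Day 12 and at 94.9 and 87.7 FPKM on Day 16, so that the days overlapped and no direction was called.

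Of 21 core cardiac transcription factors, 2 rose and 3 fell, with a median log2FC of 0.08 that turned to -0.18 with total counts (6 rose and 4 fell without P-IWP2 replicate 5 of Day 12, and 1 rose and 4 fell with total counts). NKX2-5 was at 170 and 158 FPKM on Day 12 and 117 and 119 FPKM on Day 16 and was not called (edgeR adjusted p = 0.797). HOPX, a homeodomain protein of committed myocytes (4:56647988-56681899), was at 0.440 and 0.260 and then 11.9 and 13.6 FPKM (log2FC 5.44 ± 0.39, edgeR adjusted p = 0.000332), a call kept without any one P-DF library. MEF2C and GATA5, factors of early heart, fell by 1.08 and 1.05. HEY2, which marks compact ventricular muscle, was at 8.77 and 5.80 and then 19.8 and 18.6 FPKM (log2FC 1.65 ± 0.34), and PLCXD3, of the same list of chamber identity genes, rose by 2.34. Of 13 second heart field and progenitor genes tested, 3 fell and 0 rose, with a median log2FC of -0.96 (7 fell without P-IWP2 replicate 5 of Day 12). They were FOXH1, a partner of nodal signaling, from 4.26 and 6.03 to 0.460 and 0.440 FPKM, FOXC2, which stayed under 2 FPKM, and FGF10, from 14.9 and 18.1 to 7.56 and 6.66 FPKM. HEY2, MEF2C, GATA5, FOXC2 and FGF10 lost their calls in at least 3 of the 4 fits without 1 P-DF library.

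By the size of the change among genes at 5 FPKM or more on either day, the 10 largest rises were MYL2, LEFTY2, COL21A1, PRRX1, GPR22, HSPB6, TNS1-AS1, HOPX, SYT9 and COL12A1. LEFTY2, an inhibitor of nodal signaling (1:225936598-225941383), was at 0.210 and 0.470 FPKM on Day 12 and 35.9 and 47.1 FPKM on Day 16 (log2FC 7.18 ± 0.74, edgeR adjusted p = 0.000850). It has a close paralog, and shared reads may have been split. PRRX1, a homeobox factor known from mesenchyme (1:170662728-170739421), was at 0.170 and 0.0200 and then 7.07 and 8.13 FPKM, with 24 reads in all on Day 12 and 2147 on Day 16 (log2FC 6.56 ± 0.58). The collagens COL21A1 and COL12A1 were at 0.340 and 0.240 and then 22.4 and 23.1 FPKM, and at 0.470 and 0.410 and then 13.3 and 12.9 FPKM. HSPB6, a small heat shock protein of muscle, was at 0.970 and 0.510 and then 37.1 and 26.9 FPKM. TNS1-AS1 lies within TNS1 on the other strand, and since the strand setting of the counting is not given in the sources used here, reads of the pair cannot be told apart.

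The 10 largest falls were WNT2, HAS2, ACTA2-AS1, CCDC80, MYH6, HPN, TAFA4, ETV5, TGFB2 and HAPLN1. HAS2, the hyaluronan synthase of cardiac jelly, was at 38.8 and 39.2 FPKM on Day 12 and 0.5 and 0.680 FPKM on Day 16 (log2FC -5.78 ± 0.72, edgeR adjusted p = 0.00180). HAPLN1, which links hyaluronan to proteoglycans, was at 5.66 and 6.90 and then 0.490 and 0.520 FPKM, and the secreted CCDC80 at 18.9 and 37.1 and then 1.47 and 1.41 FPKM. ACTA2-AS1 overlaps ACTA2 on the opposite strand, and with the strand setting unknown their reads cannot be told apart. Of these 20 genes, WNT2, COL21A1, TNS1-AS1, SYT9, HPN, TAFA4, ETV5 and MYL2 lost their call in at least 1 fit without 1 P-DF library.

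Falls outnumbered rises among genes of WNT, BMP and TGF-beta signaling. In the WNT pathway list, 8 of 29 tested genes fell and 5 rose, with a median log2FC of -0.45 (12 fell and 5 rose without P-IWP2 replicate 5 of Day 12). Among the ligands, WNT2, expressed in early cardiac progenitors, was at 19.7 and 10.3 FPKM on Day 12 and 0.190 and 0.0300 FPKM on Day 16 (log2FC -6.93 ± 1.21, edgeR adjusted p = 0.00803), with 2 reads in the lowest library, and this call was lost without either Day 16 library. WNT11, a noncanonical ligand of heart muscle, was at 43.5 and 52.3 and then 10.03 and 8.50 FPKM (log2FC -2.11 ± 0.58, edgeR adjusted p = 0.0413). RSPO3, a secreted enhancer of WNT signals, fell from 49.0 and 63.6 to 9.47 and 9.13 FPKM (log2FC -2.34 ± 0.54). AXIN2, a direct target and inhibitor of beta-catenin signaling, was at 17.1 and 8.25 and then 2.62 and 2.31 FPKM (log2FC -2.11 ± 0.41, edgeR adjusted p = 0.0120). NKD1, another target and inhibitor, and LEF1, the transcription factor of the pathway, fell by 4.14 and 1.33. The receptors differed among themselves: FZD2 rose from 8.39 and 6.57 to 46.9 and 50.7 FPKM (log2FC 2.96 ± 0.24, edgeR adjusted p = 0.000576) and FZD1 from 5.70 and 5.97 to 19.2 and 19.3 FPKM, while FZD4 fell from 26.7 and 35.1 to 8.13 and 8.77 FPKM. FZD2 and FZD4 kept their calls without any one P-DF library. WNT11, RSPO3 and FZD1 lost theirs in each of the 4 fits, AXIN2 and LEF1 in 3 and NKD1 without Day 16 replicate 4.

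In the BMP and TGF-beta list, 9 of 25 genes fell and 2 rose, with a median log2FC of -0.39 (11 fell and 4 rose without P-IWP2 replicate 5 of Day 12). The ligand BMP2 (20:6767686-6780246) was at 93.4 and 120 FPKM on Day 12 and 8.78 and 8.61 FPKM on Day 16 (log2FC -3.35 ± 0.48, edgeR adjusted p = 0.00326). The ligand TGFB2 was at 64.3 and 58.6 and then 5.46 and 4.40 FPKM (log2FC -3.38 ± 0.39, edgeR adjusted p = 0.00135). ID1 to ID4 encode inhibitors of bHLH factors and are direct targets of BMP signaling, and all 4 fell. ID3 was at 123 FPKM in both Day 12 libraries and at 22.5 and 18.5 FPKM on Day 16 (log2FC -2.33 ± 0.19, edgeR adjusted p = 0.000527). ID1 was at 93.3 and 98.2 and then 23.2 and 14.5 FPKM, ID4 at 49.3 and 46.6 and then 10.2 and 8.92 FPKM, and ID2 at 138 and 156 and then 56.0 and 73.0 FPKM. SMAD6, the inhibitory SMAD induced by BMP, NOG, a BMP antagonist, and TGFBR3, a coreceptor, fell by 1.25, 1.04 and 0.68. INHBA, the subunit of activin A, rose from 1.76 and 0.830 to 14.6 and 12.1 FPKM (log2FC 3.62 ± 0.50, edgeR adjusted p = 0.00296). The calls of TGFB2, ID1, ID3, ID4, SMAD6 and INHBA were kept without any one P-DF library, that of BMP2 was lost without Day 16 replicate 4, that of ID2 without Day 12 replicate 4, and those of NOG and TGFBR3 in 3 or more fits.

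Of 21 Notch, neuregulin and FGF genes, 3 rose (FGF1, FGF12 and HEY2) and 2 fell (10 and 4 without P-IWP2 replicate 5 of Day 12). FGF1, an intracellular and secreted growth factor of heart muscle, was at 0.580 and 1.11 FPKM on Day 12 and 20.9 and 22.0 FPKM on Day 16 (log2FC 4.92 ± 0.86, edgeR adjusted p = 0.00801). FGF12, an FGF that stays inside the cell, rose by 3.09 and stayed at 1.00 FPKM or less. The receptor FGFR2 fell from 7.55 and 8.53 to 1.91 and 2.06 FPKM and NRG1, the neuregulin ligand, from 39 reads on Day 12 to 3 reads on Day 16. Outside this list, ETV5, a transcription factor downstream of FGF receptors, fell from 13.1 and 14.3 to 1.03 and 1.07 FPKM (log2FC -3.45 ± 0.65). Except for FGF12, the calls in this paragraph were lost in 3 or 4 of the fits without 1 P-DF library.

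**Figure D4:**
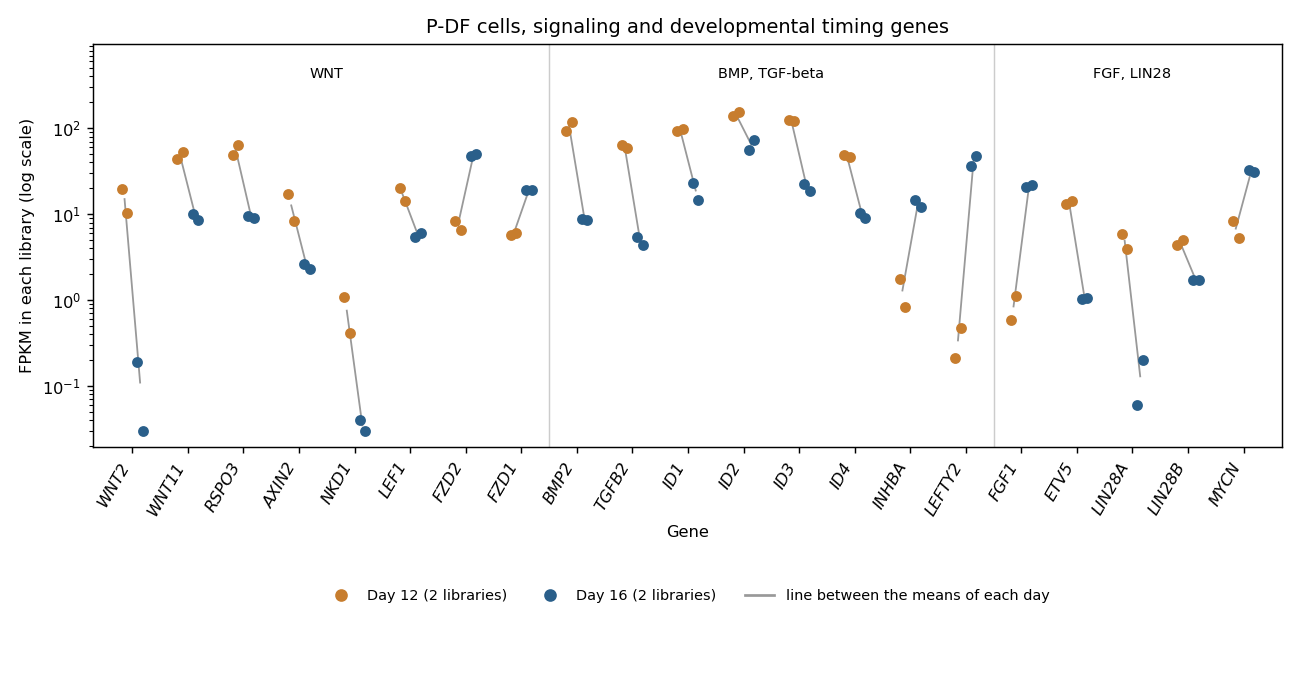
The vertical axis gives FPKM on a log scale in each P-DF library (orange for Day 12, blue for Day 16, lines between the means) for genes of WNT signaling, of BMP and TGF-beta signaling and of FGF and LIN28. BMP2, TGFB2 and ID1 to ID4 are lower in both Day 16 libraries than in both Day 12 libraries, whereas FZD2, INHBA, LEFTY2 and FGF1 are higher.

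In the list of S phase and DNA replication, 16 of 32 genes were called higher and 0 lower, with a median log2FC of 0.81 and 30 of the 32 above 0 (0.56 with total counts). The count was 6 with total counts, 7 with limma and 25 without P-IWP2 replicate 5 of Day 12, with 0 lower in each. CDT1, the licensing factor, was at 1.53 and 0.890 FPKM on Day 12 and 3.11 and 3.32 FPKM on Day 16 (log2FC 1.66 ± 0.29, edgeR adjusted p = 0.00831). PCNA, the sliding clamp, was at 26.7 and 16.5 and then 30.0 and 32.8 FPKM (log2FC 0.79 ± 0.21, edgeR adjusted p = 0.0352). MCM6, a subunit of the replicative helicase, was at 11.7 and 9.09 and then 14.9 and 15.5 FPKM. DTL and TK1 rose by 1.51 and 1.48. Replicate 4 was the lower of the Day 12 libraries for each of these genes, and without it none of CDT1, DTL, TK1 and PCNA was called; MCM6 was called there and lost its call without Day 16 replicate 4.

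Among 40 genes of G2 and mitosis, 5 rose and 0 fell, with a median log2FC of 0.70 (0.44 with total counts). The count of rises was 2 with total counts, 2 with limma and 21 without P-IWP2 replicate 5 of Day 12. ANLN, the anillin of the cleavage furrow, was at 9.65 and 7.56 FPKM on Day 12 and 20.8 and 23.4 FPKM on Day 16 (log2FC 1.62 ± 0.30, edgeR adjusted p = 0.0101). CENPA, CKS2, HMMR and CCNB1 were the others, with log2FC of 1.37, 1.17, 0.98 and 0.94. Of 19 other fits (other methods, or 1 library left out), 17 kept the call of ANLN and 15 that of CKS2. For CENPA it was 12, for HMMR 10 and for CCNB1 8. The proliferation marker MKI67 was at 3.39 and 3.36 and then 3.92 and 4.15 FPKM, and TOP2A at 10.4 and 9.35 and then 14.3 and 17.1 FPKM, neither called (edgeR adjusted p = 0.328 and 0.0521). Of 19 cyclins, inhibitors and genes of cell cycle exit, 8 rose, 0 fell and 11 were not called (10 rose and 1 fell without P-IWP2 replicate 5 of Day 12). This split rested on the scaling, with 4 higher and 3 lower with total counts and 5 higher and 4 lower with limma on FPKM. CDKN1A, the inhibitor p21, was at 21.3 and 7.87 and then 34.9 and 43.9 FPKM, CDKN1C, the inhibitor p57, at 15.25 and 9.81 and then 20.1 and 21.6 FPKM, and the antiproliferative BTG2 at 43.6 and 30.3 and then 137 and 120 FPKM. The D-type cyclins CCND1 and CCND2 rose by 1.36 and 1.23. BTG2 and CCND2 kept their calls without any one P-DF library, while CDKN1A, CDKN1C and CCND1 were called only without Day 12 replicate 3.

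Motifs of the E2F family, which drives S phase genes, were searched as TTTGGCGC, TTTCCCGC, TTTGCCGC and TTTCGCGC over the same windows and on both strands. At least 1 was present in 12 of the 27 S phase genes with a promoter entry (44.4%, of 32 in the list), in 6 of the 14 called members with an entry, and in 2.79% of all promoters. In comparison, 2 of 33 genes of G2 and mitosis and 0 of 23 Z-disc, M-band and costamere genes held it. The shorter CCAAT box was present in 23 of the 33 genes of G2 and mitosis (69.7%) and in 33.0% of all promoters. The windows of CDT1, at chr16:88803734-88803781 on the plus strand, and of PCNA, at chr20:5126654-5126701 on the minus strand, are shown as members that rose, with the match, here on the opposite strand, in capitals.
CDT1: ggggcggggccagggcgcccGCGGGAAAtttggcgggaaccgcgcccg
PCNA: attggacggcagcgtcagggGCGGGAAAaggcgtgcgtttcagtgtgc

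Few genes of energy metabolism were called. In the TCA cycle, 0 of 27 genes rose and IDH1, the cytosolic isocitrate dehydrogenase, fell by 0.65. In respiratory complex I, NDUFB4 alone of 37 genes rose, by 0.60 (0 with total counts), and in complexes III to V 0 of 37 were called. The 13 mitochondrially encoded subunits all had a log2FC above 0, with a median of 0.46 (0.21 with total counts), and 0 passed the test. Without P-IWP2 replicate 5 of Day 12, all of these mitochondrially encoded subunits were called higher. More genes of complex I, of complexes III to V and of the TCA cycle were also called there. These counts thus depended on which libraries shared the fit. MT-CO1, the first subunit of cytochrome oxidase, was at 18362 and 19429 FPKM on Day 12 and 20526 and 23580 FPKM on Day 16 (edgeR adjusted p = 0.357, and 0.0233 without that library). All mitochondrial genes took 12.1% and 12.4% of the counts on Day 12 and 14.0% and 15.8% on Day 16.

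Of 31 genes of fatty acid uptake and beta-oxidation, 2 rose and 2 fell (4 and 7 without P-IWP2 replicate 5 of Day 12, and 2 and 4 with total counts). FABP3, the fatty acid binding protein of the heart, was at 100.2 and 106 FPKM on Day 12 and 231 and 243 FPKM on Day 16 (log2FC 1.46 ± 0.36, edgeR adjusted p = 0.0309), and CD36, the fatty acid transporter, at 0.680 and 0.360 and then 2.62 and 3.05 FPKM. CPT1A and ACADVL, which carry fatty acids into the mitochondrion and start their oxidation, fell by 0.68 and 0.58. In glycolysis and glucose uptake, LDHA rose by 1.28, and PDK4, which holds back pyruvate oxidation, and the transporter SLC2A3 fell by 1.63 and 1.46, of 28 genes (7 rose and 5 fell without P-IWP2 replicate 5 of Day 12, and 1 rose and 4 fell with total counts). Of 14 genes of glycogen metabolism, GYG1, the primer glycogenin, rose from 9.52 and 9 to 39.0 and 44.6 FPKM (log2FC 2.43 ± 0.23, edgeR adjusted p = 0.000649), and PYGB, a glycogen phosphorylase, by 1.17 (8 rose and 1 fell without P-IWP2 replicate 5 of Day 12). Among 23 metabolic regulators (1 rose and 4 fell with total counts), PRKAA2, a catalytic subunit of AMPK, rose by 1.19 and RXRG, a retinoid X receptor, fell from 37.9 and 26.2 to 3.83 and 3.11 FPKM. PPARGC1A, the coactivator of mitochondrial genes, was at 25 and 26.1 and then 14.45 and 14.42 FPKM and was not called (edgeR adjusted p = 0.0818). FABP3, CD36 and PYGB lost their calls in each fit without 1 P-DF library, and CPT1A, ACADVL and IDH1 in 3 of 4.

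LIN28A, the RNA-binding protein that blocks let-7 maturation in embryonic cells, was at 5.88 and 3.96 FPKM on Day 12 and 0.0600 and 0.2 FPKM on Day 16 (log2FC -4.95 ± 0.50, edgeR adjusted p = 0.000815), and LIN28B at 4.34 and 5.00 and then 1.72 FPKM in both libraries (log2FC -1.18 ± 0.30). MYCN, a let-7 target, was at 8.29 and 5.30 and then 32.5 and 31.3 FPKM (log2FC 2.48 ± 0.27, edgeR adjusted p = 0.00100), and the receptors INSR and IGF1R rose by 1.47 and 0.70. In that list of 15 genes, 3 rose and 2 fell (6 and 4 without P-IWP2 replicate 5 of Day 12; 2 and 5 with total counts and 2 and 6 with limma, where the median log2FC was -0.15), and the calls of LIN28A, MYCN and INSR were kept without any one P-DF library.

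Immediate early and heat shock genes, which also respond to handling, gave 7 rises and 0 falls among 15, with a median log2FC of 1.03 (8 and 0 without P-IWP2 replicate 5 of Day 12, and 3 and 0 with total counts or limma). ATF3 was at 11.5 and 10.2 FPKM on Day 12 and 60.7 and 42.5 FPKM on Day 16 (log2FC 2.50 ± 0.27, edgeR adjusted p = 0.00104), JUN at 37.9 and 25.9 and then 123 and 94.1 FPKM, and HSPB1, a small heat shock protein also abundant in muscle, at 242 and 210 and then 680 and 586 FPKM. FOS was not called (edgeR adjusted p = 0.0620). Among 20 cytosolic ribosomal proteins 12 rose and 0 fell, with a median log2FC of 0.51 (0.26 with total counts). The count was 2 with total counts, 4 with limma and 18 without P-IWP2 replicate 5 of Day 12. RPLP1 had the largest log2FC of the called members, 0.98. The part of handling, of depth and of the mitochondrial share in the differences between the days was not tested.

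Some matrix and junction genes of muscle were higher on Day 16. The summed FPKM of the basement membrane, integrin and laminin list was 798 and 789 on Day 12 and 765 and 752 on Day 16. That of the intercalated disc list was 708 in both Day 12 libraries and 891 and 822 on Day 16. Of 23 genes of basement membrane, integrins and laminins, 8 rose and 2 fell (12 and 2 without P-IWP2 replicate 5 of Day 12, and 4 and 2 with total counts). LAMA2, the laminin chain of muscle, was at 13.3 and 11.2 FPKM on Day 12 and 27.5 and 28.8 FPKM on Day 16 (log2FC 1.46 ± 0.27), and LAMA1, the chain of early embryos, at 35.1 and 47.3 and then 9.87 and 11.8 FPKM (log2FC -1.67 ± 0.20, edgeR adjusted p = 0.00159). Of 14 genes of the intercalated disc, the junction between myocytes, 4 rose and 0 fell (9 and 0 without P-IWP2 replicate 5 of Day 12). NRAP, an actin-anchoring protein, had 0 reads in both Day 12 libraries and 204 reads on Day 16, at 1.16 and 0.960 FPKM. CTNNA1 and VCL, which tie cadherins to actin, rose by 1.12 and 1.10. Over the other fits (other methods, or 1 library left out), LAMA1 and CTNNA1 kept their calls in 19 of 19. LAMA2 kept its call in 16 of 19, VCL in 15 of 19 and NRAP in 14 of 18.

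Marker lists of other cell types were read for what else the cultures held. In bulk RNA, fewer cells of a type and less RNA per cell cannot be told apart. The summed level of 15 endothelial markers was 227 and 163 FPKM on Day 12 and 17.0 and 14.9 FPKM on Day 16, nearly all of it from KDR, a receptor that early cardiac progenitors also carry, at 224 and 161 and then 15.0 and 13.3 FPKM (edgeR adjusted p = 0.0527, and 7.33e-08 without P-IWP2 replicate 5 of Day 12). None of the 15 was called (4 fell without that library), 13 stayed under 1 FPKM, and the defining PECAM1 and CDH5 were at 0.0700 FPKM or less. The pluripotency list summed to 50.8 and 52.6 and then 12.1 and 15.4 FPKM, with PODXL and LIN28A lower and POU5F1 and NANOG at 0.05 FPKM or less. Epicardial and mesothelial markers summed to 72.4 and 56.05 and then 36.9 and 32.8 FPKM, with 10 of 14 under 1 FPKM. Of 13 tested, 2 were lower (PODXL and LRRN4), and more were called in both directions without P-IWP2 replicate 5 of Day 12.

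Fibroblast and stromal markers summed to 359 and 323 FPKM on Day 12 and 274 and 289 FPKM on Day 16, with 3 of 21 higher (S100A4, POSTN and VIM) and FN1, fibronectin, lower, from 139 and 130 to 27.6 and 29.1 FPKM. The anchors of this list differed: DCN, decorin, was at 0.0200 FPKM or less, while the collagens COL1A1 and COL3A1 were present on both days. COL1A1 was at 12.0 and 10.1 and then 14.6 and 11.3 FPKM. COL3A1 was at 8.17 and 3.99 and then 5.23 and 3.28 FPKM, and neither was called. Smooth muscle markers summed to 661 and 618 and then 1144.5 and 857 FPKM, with 4 of 13 higher, among them DES and CNN1 (49.4 and 36.7 and then 237 and 172 FPKM), ACTA2 lower, and MYH11, the defining myosin, at 0.3 FPKM or less. Hepatic and endoderm markers summed to 15.7 FPKM or less, with 20 of 22 under 1 FPKM; of 21 tested, APOA1 rose by 1.54 and APOB fell by 3.09. Blood markers summed to 0.610 FPKM or less, and 6 of 14 were at 0 in all 4 libraries. Epithelial markers summed to 211 and 205 and then 285 and 248 FPKM, where CLDN6, a claudin of embryonic cells, rose by 1.98 and 2 of 10 fell. The neural list summed to 177 and 136 and then 207 and 150.7 FPKM with 0 of 7 called, but 11 of its 12 genes stayed under 1 FPKM. The skeletal muscle list summed to 294 and 271 and then 237 and 223 FPKM with 0 of 5 called, and 9 of its 12 genes stayed under 1 FPKM. The part of other cells in the changes was not tested.

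For comparison, 386 of 19505 genes (1.98%) were called over the same days in NP-IWP2 cells and 5270 (27.0%) in P-IWP2 cells. Of the 2654 genes called in P-DF cells, 2269 (85.5%) changed in the same direction in NP-IWP2 cells, and 224 were called in both treatments. Whether the change in P-DF cells differed from that in the other treatments was tested as an interaction of treatment and day, with no library shared between the changes. It was called for 94 genes against NP-IWP2 cells (0.482%), 34 more positive and 60 more negative in P-DF cells. For TNNI3 the log2FC was 3.30 in P-DF and -0.10 in NP-IWP2 cells (interaction 3.40 ± 0.53, edgeR adjusted p = 0.0357), and for HOPX 5.44 and 0.55 (interaction 4.89 ± 0.50, edgeR adjusted p = 0.0132). ID1 changed by -2.09 in P-DF and -0.02 in NP-IWP2 cells (interaction -2.07 ± 0.29, edgeR adjusted p = 0.0234), and TGFB2 by -3.38 and -0.37 (interaction -3.01 ± 0.52, edgeR adjusted p = 0.0478). Against P-IWP2 cells 0 genes were called by edgeR (0%), with 1716 at an unadjusted p under 0.05 and 127 called by DESeq2; this count was 69 without P-IWP2 replicate 5 of Day 12 and 4107 without replicate 6. The count against NP-IWP2 cells moved up or down with the library that was left out. Such a fit leaves 1 library in a group, so it cannot show whether these calls rest on single libraries.

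**Figure D5:**
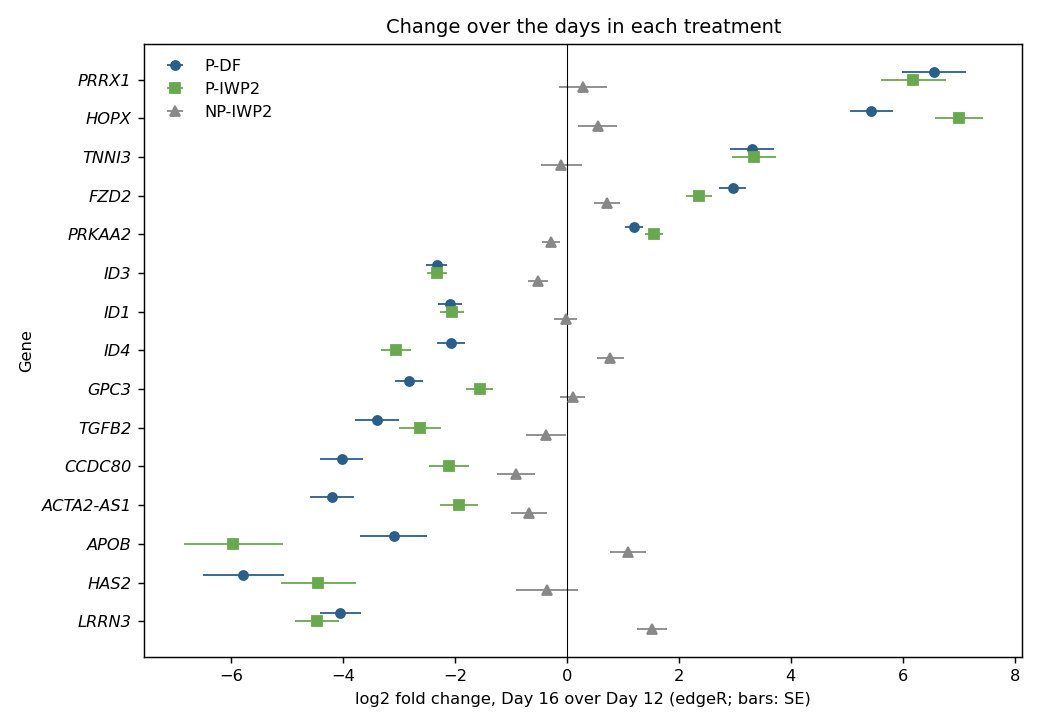
The horizontal axis gives the edgeR log2FC of Day 16 over Day 12, with its SE, in P-DF (circles), P-IWP2 (squares) and NP-IWP2 cells (triangles) for the named genes with a called interaction between P-DF and NP-IWP2 cells. P-DF and P-IWP2 cells lie on the same side of 0 for each of these genes, and NP-IWP2 cells lie closer to 0 or on the other side.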

How the data were processed

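RNA-seq was measured in 12 libraries of H1 cells. Per the labels, RNA was made into cDNA and libraries with a low-input cDNA kit and a SMRTbell kit. The submitters' processing notes name cutadapt 1.9.1, HISAT2 2.0.1, HTSeq 0.6.1, DESeq2 and the hg38 build; per the study's methods the authors trimmed reads with the first, aligned them with the second and counted them with the third. The table deposited by the authors holds counts per Ensembl gene, without normalization, and FPKM, which equal the deposited counts divided by exon length and library total. Of 61806 genes, 20417 had no symbol.

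Here the counts were fitted with edgeR 4.0.16 (R 4.3.3) with TMM, filterByExpr (19505 genes left), 1 model of 6 groups and 6 residual degrees of freedom, and the quasi-likelihood test, called at a Benjamini-Hochberg adjusted p of 0.05. Each log2 fold change is Day 16 over Day 12 with its SE. The members and the 45 gene lists were chosen with earlier results of these data known. Lists have counts and medians but no test. Alternatives were DESeq2 1.42.0, limma 3.58.1 on log2(FPKM + 1) with a mean FPKM of at least 1, size factors of DESeq2, total counts, no filter, a replicate block, only the 4 libraries compared, and leaving out each library.

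Genes were named by a rule: the 10 largest called rises and 10 largest falls at a mean of 5 FPKM or more with no overlap, set anchors of each list, the 3 most changed called members of each list, and the 5 largest interactions. Which of these are given was chosen after their values were seen. CACNA2D1, CAMK2D, CCNB1, CSRP3, FGFR2, FZD1, FZD4, GPC3, HMMR, HSPB7, ID1, ID3, ID4, IGF1R, KCND3, KDR, MCM6, NOG, RSPO3, SMAD6, SYNPO2L, TCAP, TGFBR3, VCL, VIM and WNT11 fall outside the rule and were chosen after their values were seen. The tests were run on simulated data with known changes.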

Additional observations from a re-analysis of the deposited data

Results flagged for a closer look

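For 94 genes, the interaction of treatment and day set the 4-day change of P-DF cells apart from that of NP-IWP2 cells (edgeR adjusted p under 0.05). Values are the log2FC in P-DF cells minus that in NP-IWP2 cells. Among muscle and transcription factor genes, the interaction was 3.40 for TNNI3, 4.89 for HOPX and 6.28 for PRRX1. Among secreted and matrix genes it was -5.43 for HAS2, -3.52 for ACTA2-AS1, which overlaps ACTA2, -3.11 for CCDC80 and -3.01 for TGFB2. In signaling it was 2.25 for the receptor FZD2, -2.07 for ID1, -1.81 for ID3, -2.84 for ID4 and 1.47 for the kinase PRKAA2. The 3 others were APOB, an apolipoprotein at 0.250 FPKM or less in P-DF cells (-4.18), GPC3, a glypican (-2.93), and LRRN3, a leucine-rich repeat protein (-5.57). Each of these 15 genes kept its call under 6 to 15 of 18 alternatives. Groups of 2 libraries are too small for a test of outlying libraries.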

How the results depend on the processing

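The count of genes called in P-DF cells (2654) was 6274 with the 4 P-DF libraries alone and 458 to 5984 when 1 library was left out. In NP-IWP2 cells (386) the count was 2045 without the filter, 1093 with DESeq2, 5124 with its 4 libraries alone and 2 to 3517 without 1 library. In P-IWP2 cells (5270) it was 0 with its 4 libraries alone and 1211 to 9776 without 1 library. The interaction with NP-IWP2 cells (94) gave 1124 without the filter, 502 with DESeq2 and 0 to 1568 without 1 library, and that with P-IWP2 cells (0) gave 1000, 127 and 0 to 4107. Of 833 list genes tested, 183 were called, 343 without the filter, 463 with the 4 libraries alone and 53 to 421 without 1 library. The cause was not tested. Fits that left out a library of another treatment, other than P-IWP2 replicate 5 of Day 12, were chosen after seeing the data; where 1 library was left in a group, it was assumed to vary like the others.

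Equal replicate numbers did not pair the P-DF libraries (correlation of deviations from the group means 0.026). With a replicate block, 1856 genes were called in P-DF cells, 154 in NP-IWP2 cells, and 12 and 2 for the interactions with NP-IWP2 and P-IWP2 cells; rises in P-DF cells were then 9 of 32 S phase genes, 1 of 40 G2 and mitosis genes and 4 of 20 ribosomal proteins. Of the 131 named called genes, 111 kept their call under the block, 123 with total counts, 116 of 125 with limma and 131 with DESeq2. None of the 131 changed sign, whereas some uncalled genes did: RYR2, at -0.13 with total counts and -0.13 with limma, and NPPB, at -0.41 without P-DF Day 12 replicate 4 and 2.84 without replicate 3; so did CDH5, DCN, MYH11 and PECAM1, all at 0.3 FPKM or less, when a P-DF library was left out. With 2 libraries against 2, an exact permutation test of a single value cannot go below 0.333.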
